A study of Mus musculus with 4 samples.

Results

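The genes of the proteasome and of its assembly were followed here in the mRNAs of polysomes, the fractions in which several ribosomes sit on 1 mRNA. Members were the genes whose symbol is Psm, a letter from a to g and a number, without Psmb8, Psmb9 and Psmb10, which code for the subunits of the immunoproteasome. This took 45 of the 53465 genes counted, namely 16 core particle genes, 17 regulatory particle genes, 7 assembly chaperones and 5 genes of other activators and an inhibitor. Control cells (STHdhQ7/Q7) and HD-homo cells (STHdhQ111/Q111) are immortalized mouse striatal lines with knock-in Htt exon 1 of 7 or 111 glutamine repeats, from mice of the strain labelled C57/BL6. Both were grown at 33 °C. For the run-off, both were treated with harringtonine (2 µg/ml for 2 min), which blocks new initiation while elongating ribosomes run off. By the study's methods, cycloheximide was then added before the cells were collected. The libraries thus hold mRNAs still in polysomes after the run-off. Each group had 2 libraries, from 2 independent experiments by the study's methods. Both libraries of a group came from 1 line, so the repeat and other differences between the lines cannot be told apart.

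The 26S proteasome degrades proteins that carry ubiquitin chains. Its barrel-shaped core particle has outer rings of alpha subunits, which gate the entry, and inner rings of beta subunits, some of which cut peptide bonds. The regulatory particle caps the barrel. Its lid removes the ubiquitin chain, and the ATPases of its base unfold the substrate and thread it into the core. Dedicated chaperones help to assemble the rings and the base and are not part of the finished particle. In Huntington disease the proteasome is of interest because huntingtin with an expanded repeat forms aggregates that contain ubiquitin and proteasome subunits.

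Total counts were 14122706 and 15472808 in the control libraries and 12372090 and 14074182 in the HD-homo libraries, and 12961 genes passed the filter on low counts and were tested. Of them, edgeR called 1344 higher and 1408 lower in HD-homo at an adjusted p under 0.05. The lines also differed in markers of cell identity. The neural progenitor genes Nes, Sox2 and Pax6 were lower in HD-homo (3 of 4 listed markers), and 4 of 7 mesenchymal markers were higher, among them Col1a1, with the list summing to 924 and 1871 CPM in control and 5313 and 5200 CPM in HD-homo. Of 10 striatal projection neuron markers, 4 were tested. Foxp1 and Ppp1r1b were higher in HD-homo, Adora2a was lower, and Drd1 and Drd2, the dopamine receptor genes that define these neurons, had 0 counts in every library. The list summed to 61.3 and 66.4 CPM in control and 152 and 124 CPM in HD-homo, most of it Foxp1. Ppp1r1b was at most 1.46 CPM and was not called by DESeq2 (adjusted p = 0.130). Of the oligodendrocyte and microglia lists, only Mbp and Csf1r were tested. Both were called higher in HD-homo, with at most 4.04 CPM for Mbp and 1.79 CPM for Csf1r in any library. The part of these marker differences in the proteasome values was not tested.

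Most proteasome genes did not pass the test. Of the 45 members, 43 were tested, and 2 were higher in HD-homo, Psmd10 and Psmg2, both assembly chaperones. None was lower by edgeR without a replicate block, by DESeq2 or by limma-voom. With the replicate number as a block, edgeR called 6 members higher and 2 lower, beside 16.4% and 18.1% of all tested genes. Without the block, the share of members called higher was 4.65%, beside 10.4% of all tested genes, and the share called lower was 0%, beside 10.9%. At an unadjusted p under 0.05, edgeR gave 5 of 43 higher (beside 14.8% of all tested genes) and 0 lower (beside 15.9%). The median log2 fold change was 0.08 over the tested members and 0.00 over all tested genes. For 15 members each HD-homo library was above each control library (34.9%, beside 28.6% of all tested genes), for 6 each was below (14.0%, beside 28.5%), and the groups overlapped for 22. The 95% interval of the fold change stayed within 2-fold in either direction for 36 of the 43. The untested members were Psma8, an alpha subunit of the testis, with 0 counts in all libraries, and Psmb11, a beta subunit of the thymus, with 1 count in 1 HD-homo library. In bulk samples, fewer cells of a type and less RNA per cell cannot be told apart, and no total RNA library was analysed here, so a level mixes the amount of an mRNA with its presence in polysomes.

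**Figure D1:**
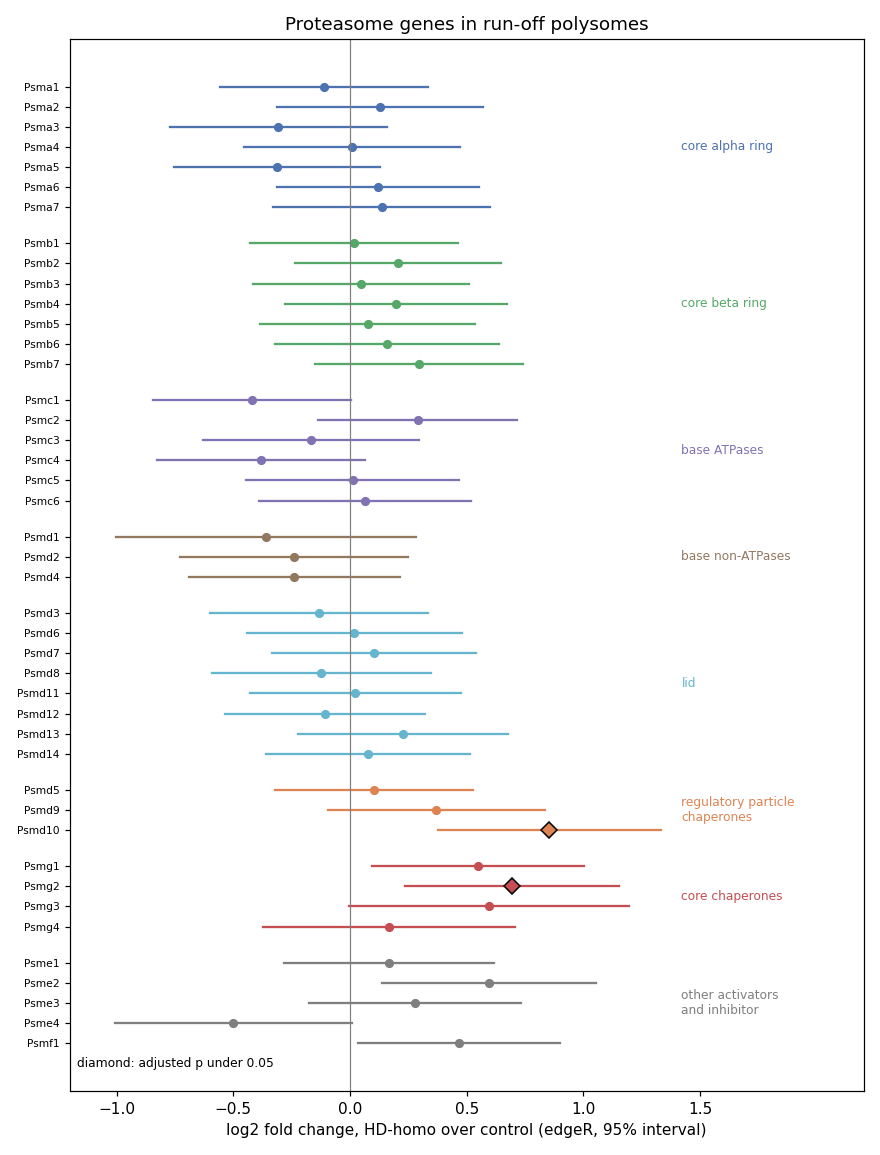
The log2 fold change of HD-homo over control is plotted for each of the 43 tested members, with the 95% interval from edgeR as a line and the members grouped by role. The diamonds mark Psmd10 (0.85) and Psmg2 (0.69), while all 14 core particle genes lie between -0.31 and 0.30.

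No core particle gene was called. The 14 tested genes had a median log2 fold change of 0.10, which became -0.06 without HD-homo replicate 2, and every interval stayed within 2-fold, with outer bounds of -0.77 and 0.74. In the alpha ring the median was 0.01. Psma7, the highest there, had TMM-scaled CPM (a gene's counts over the library's scaled total) of 437 and 390.0 in control and 396 and 513 in HD-homo. These groups overlapped (log2 fold change 0.14, SE 0.22, adjusted p = 0.741), and the sign changed in 1 of 12 alternative settings. Psma5, the lowest, had 218 and 222 CPM in control and 159 and 195 CPM in HD-homo. Both HD-homo values lay below control, yet the difference did not pass the test (log2 fold change -0.31, SE 0.20, adjusted p = 0.346).

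The 3 catalytic subunits of the beta ring each had a slightly higher mean in HD-homo, without passing the test. When 1 library was left out, the log2 fold change fell as low as -0.12 for Psmb5 and -0.10 for Psmb6. Psmb5, the subunit with chymotrypsin-like activity, had 76.5 and 76.9 CPM in control and 70.7 and 90.8 CPM in HD-homo, so the groups overlapped (log2 fold change 0.08, SE 0.21, adjusted p = 0.861). Psmb6, with caspase-like activity, had 446 and 422 CPM in control and 405 and 564 CPM in HD-homo (log2 fold change 0.16, SE 0.22, adjusted p = 0.696). Psmb7, with trypsin-like activity, had 436 and 417 CPM in control and 483 and 564 CPM in HD-homo. Only for Psmb7 of these 3 did the groups not overlap (log2 fold change 0.30, SE 0.21, adjusted p = 0.383). All 7 tested beta subunits had a positive log2 fold change, with a median of 0.16, but without HD-homo replicate 2 only 2 of 7 were positive, and without control replicate 2 only 5. The lowest, Psmb1, a beta subunit without catalytic activity, had 402 and 344 CPM in control and 357 and 396 CPM in HD-homo (log2 fold change 0.02, adjusted p = 0.974).

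Without the replicate block, no regulatory particle gene was called either. Its 17 genes had a median log2 fold change of -0.11 (0.02 without HD-homo replicate 1), from -0.42 to 0.29, and 16 intervals stayed within 2-fold. Among the base ATPases, Psmc1 was lowest, with 254 and 244 CPM in control and 183 and 188 CPM in HD-homo. The groups did not overlap (log2 fold change -0.42, SE 0.20, adjusted p = 0.167). With the replicate number as a block, edgeR called Psmc1 lower (adjusted p = 0.0402). Psmc2 was highest, with 225 and 220 CPM in control and 266 and 277 CPM in HD-homo. These values did not overlap either and ran the other way (log2 fold change 0.29, SE 0.20, adjusted p = 0.370). Both ATPases are parts of 1 ring.

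The base subunits that are not ATPases all had negative log2 fold changes (2 of 3 without control replicate 2), with a median of -0.24. Psmd1, a scaffold of the base, had 76.5 and 140.3 CPM in control and 63.7 and 105 CPM in HD-homo. The libraries of a group thus differed more than the groups, and its SE of 0.30 was the widest among the members (log2 fold change -0.36, adjusted p = 0.472). Psmd4, a ubiquitin receptor, had 386 and 393 CPM in control and 293 and 368 CPM in HD-homo (log2 fold change -0.24, SE 0.21, adjusted p = 0.503).

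The 8 lid genes had a median log2 fold change of 0.02. Psmd14, the deubiquitinase of the lid, had 131 and 153 CPM in control and 158 and 142 CPM in HD-homo, and the groups overlapped (log2 fold change 0.08, SE 0.20, adjusted p = 0.848). Psmd13 was the highest lid gene, with 219 and 231 CPM in control and 233 and 293 CPM in HD-homo (log2 fold change 0.23, SE 0.21, adjusted p = 0.526). Psmd3 was the lowest, with 568 and 617 CPM in control and 472 and 608 CPM in HD-homo (log2 fold change -0.13, SE 0.22, adjusted p = 0.744). Reads of Psmd13 and Psmb7 may be shared with genes on the other strand, since exons of Sirt3 overlap Psmd13 by 342 bases and exons of Nek6 overlap Psmb7 by 405 bases, and which strand was counted is not stated. Psmd9, below, overlaps Gm26745 on the other strand by 1849 bases. On the same strand, exons of Gm21972 overlap Psmd1 by 301 bases and exons of Gm26938 overlap Psmg3 by 280 bases.

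The assembly chaperones had a higher median log2 fold change than either particle. All 7 were positive (6 of 7 without control replicate 2), with a median of 0.55, and 2 of 7 were called higher (28.6%, beside 10.4% of all tested genes). Psmd10 (ENSMUSG00000031429, GRCm38 chromosome X, 140948429 to 140956728, minus strand) codes for gankyrin, which binds a base ATPase during assembly of the regulatory particle. Its levels were 28.3 and 24.9 CPM in control and 48.1 and 48.1 CPM in HD-homo. Every HD-homo value was above every control value (means 26.6 ± 2.45 and 48.1 ± 0.017, SD, n = 2), and the log2 fold change was 0.85 (SE 0.22, 95% interval 0.38 to 1.33, adjusted p = 0.0124 by edgeR). Psmd10 passed in 11 of 12 alternative settings, with adjusted p from 1.01e-05 to 0.104, and did not pass without control replicate 2 (log2 fold change 0.76, adjusted p = 0.104).

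Psmg2 (ENSMUSG00000024537, GRCm38 chromosome 18, 67641599 to 67654162, plus strand) codes for the partner of Psmg1 in the dimer that starts the alpha ring. Its levels were 34.6 and 34.2 CPM in control and 56.2 and 55.1 CPM in HD-homo. The groups did not overlap (means 34.4 ± 0.263 and 55.6 ± 0.779, SD, n = 2), though an SD of 2 libraries is a rough measure of spread. The log2 fold change was 0.69 (SE 0.21, 95% interval 0.24 to 1.15, adjusted p = 0.0320 by edgeR). This call was lost without any 1 library, with adjusted p of 0.128 and 0.157 when the first or the second control library was dropped and of 0.0924 and 0.0804 for the first or the second HD-homo library, while the log2 fold change stayed between 0.68 and 0.71 over the 12 alternatives.

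The other chaperones did not pass the test without the replicate block, while edgeR called Psmg1 and Psmg3 higher with it. Psmg1 had 52.9 and 57.0 CPM in control and 74.0 and 86.8 CPM in HD-homo, without overlap (log2 fold change 0.55, SE 0.21, adjusted p = 0.0873). Psmg3, which pairs with Psmg4 in core assembly, had 20.1 and 27.4 CPM in control and 27.2 and 44.7 CPM in HD-homo (log2 fold change 0.60, SE 0.28, adjusted p = 0.165). Those groups overlapped, and Psmg3 was called without HD-homo replicate 1. Psmg4, its partner, was the lowest core chaperone, with 35.3 and 23.9 CPM in control and 35.8 and 30.6 CPM in HD-homo (log2 fold change 0.17, SE 0.25, adjusted p = 0.723). Of the chaperones of the base, Psmd9 had a log2 fold change of 0.37 (adjusted p = 0.281). Psmd5 was lowest, with 151 and 140 CPM in control and 158 and 155 CPM in HD-homo (log2 fold change 0.10, SE 0.20, adjusted p = 0.788).

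**Figure D2:**
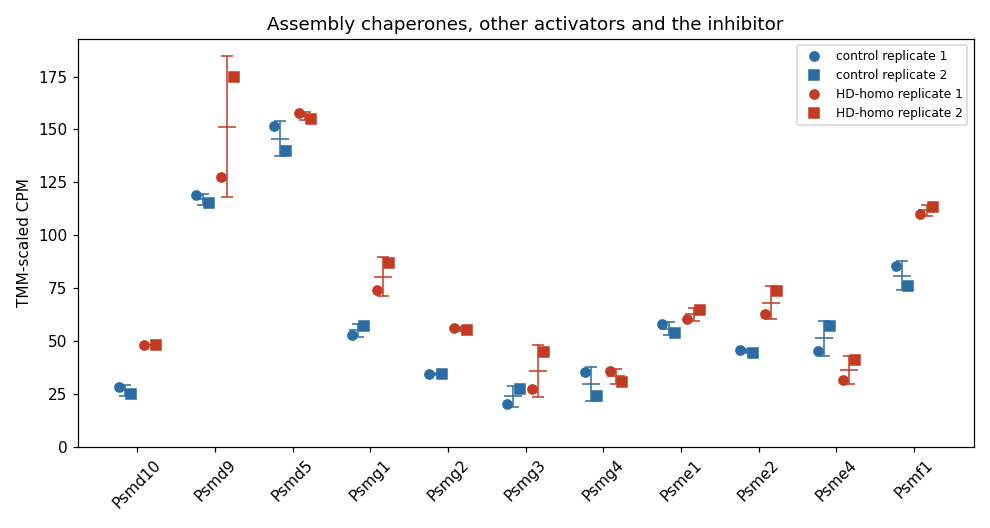
TMM-scaled CPM of the 7 assembly chaperones and of 4 activator and inhibitor genes is plotted for each library, with horizontal marks for group means and bars for 1 SD (n = 2). For Psmd10 the HD-homo libraries sit at 48.1 and 48.1, above control at 28.3 and 24.9, and Psme4 lies the other way.

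Among the other activators and the inhibitor, none passed the test without the replicate block. With the block, edgeR called Psme2 and Psmf1 higher and Psme4 lower. Psme1 and Psme2 form the interferon-inducible activator that opens the core without ATP. Psme2 was the highest of this group, with 45.8 and 44.4 CPM in control and 62.6 and 73.8 CPM in HD-homo. The groups did not overlap (log2 fold change 0.60, SE 0.21, 95% interval 0.14 to 1.06, adjusted p = 0.0658). Psme1 had 57.9 and 53.7 CPM in control and 60.4 and 64.8 CPM in HD-homo (log2 fold change 0.17, SE 0.21, adjusted p = 0.655). The ratio of Psme2 to Psme1 counts was 0.791 and 0.828 in control and 1.04 and 1.14 in HD-homo. A near copy, Psme2b, had 15 to 18 counts in every library, so few reads were assigned to it. Psmf1, an inhibitor of the core, had a log2 fold change of 0.47 (adjusted p = 0.132), and its groups did not overlap. Psme4, an activator of the nucleus, was the lowest member, with 45.4 and 57.2 CPM in control and 31.5 and 41.1 CPM in HD-homo (log2 fold change -0.50, SE 0.23, adjusted p = 0.168).

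Summed over a role group, levels in the 2 particles overlapped between the lines. The core particle summed to 4385 and 3957 CPM in control and 4107 and 4832 CPM in HD-homo. The regulatory particle summed to 4877 and 5019 CPM in control and 4266 and 5003 CPM in HD-homo. The ratio of regulatory to core sums was 1.11 and 1.27 in control and 1.04 and 1.04 in HD-homo, lower in both HD-homo libraries, and the control libraries differed by about as much as the groups. The chaperones summed to 441 and 422 CPM in control and 526 and 595 CPM in HD-homo, a 1.3-fold higher mean without overlap. Per 1000 CPM of the 2 particles, the chaperones took 47.7 and 47.0 CPM in control and 62.9 and 60.5 CPM in HD-homo. All members together made up 1.03% and 0.989% of the counts in control and 0.998% and 1.09% in HD-homo. These sums and ratios are given as a description, with no test.

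**Figure D3:**
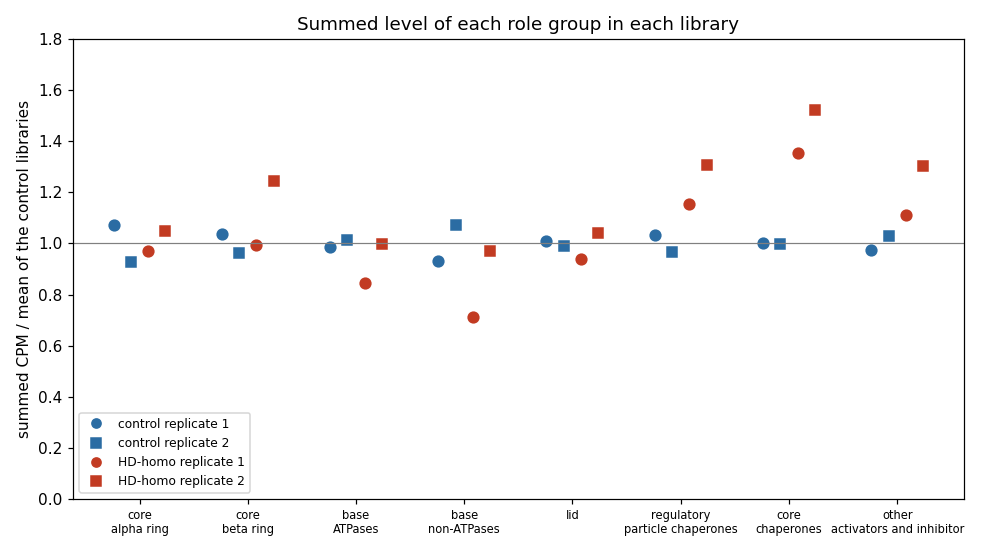
The summed CPM of each role group in each library is plotted as a ratio to the mean of the control libraries, with circles for replicate 1 and squares for replicate 2. The chaperone and activator groups lie above control in both HD-homo libraries (1.23, 1.44 and 1.21 times on average), and the other 5 groups overlap. Most of the activator sum is Psme3, with a mean of 390 of 623 CPM in control and 473 of 752 CPM in HD-homo. Psme3 was not called (log2 fold change 0.28, adjusted p = 0.425 by edgeR).

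Subunits that enter a particle in equal number had unequal levels per length. In control, the core particle genes ran from 37.0 CPM per kilobase of exon for Psma3 to 262 CPM per kilobase for Psmb4, a 7.09-fold range, with a median of 120 CPM per kilobase. The regulatory particle genes ran from 14.9 CPM per kilobase for Psmd1 to 209 CPM per kilobase for Psmc5. With the longest annotated transcript as the length, that 14.0-fold range became 7.17-fold and the core range 8.87-fold. The highest genes were then Psmb6 in the core (449 CPM per kilobase) and Psmc3 in the regulatory particle (250 CPM per kilobase). Per kilobase of exon, the chaperones had a lower median, 19.8 CPM. Their range, from 8.22 CPM per kilobase for Psmg3 to 53.4 CPM per kilobase for Psmg4, overlapped those of both particles.

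**Figure D4:**
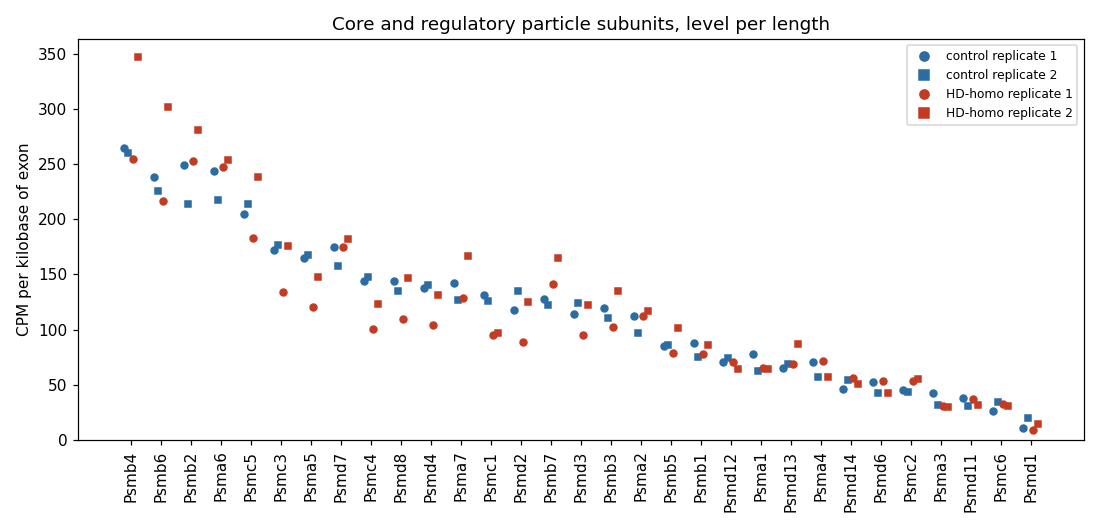
The level per length (CPM per kilobase of exon) of the 31 tested core and regulatory particle genes is plotted for each library, ordered by the control mean. Levels run from Psmb4 (262 CPM per kilobase in control) down to Psmd1 (14.9).

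Shorter members tended to have higher log2 fold changes, a relation looked at after the values were seen and given as a description. Over the 43 tested members, Spearman's rho of log2 fold change with the longest coding sequence was -0.534, beside -0.103 over 11710 tested genes. These points share the same 4 libraries. Of 26 members with up to 1000 coding bases, 23 had a positive log2 fold change, and of 5 with more than 1500 bases, 4 had a negative one. The medians of these short and long members were 0.16 and -0.24, beside 0.07 and -0.06 over all genes of those lengths. Over the 31 tested genes of the 2 particles alone, rho was -0.41. The value over members ran from -0.623 without control replicate 1 to -0.308 without control replicate 2. Over all genes it ran from -0.233 without control replicate 1 to 0.057 without control replicate 2. The control libraries themselves differed with coding length, since the log2 ratio of control replicate 2 to control replicate 1 had a rho of 0.466 over 11155 genes, beside 0.068 for the HD-homo libraries over 11148 genes.

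**Figure D5:**
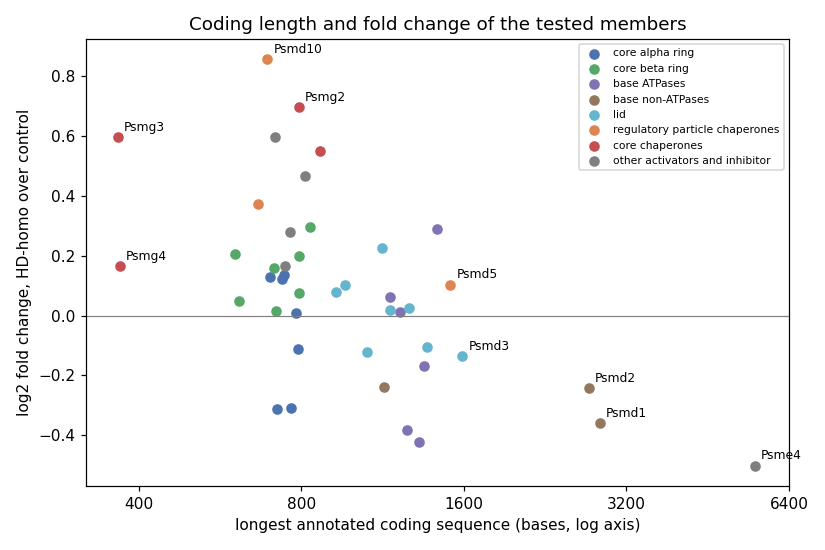
The log2 fold change of each tested member is plotted against its longest annotated coding sequence (bases, log axis), coloured by role. Psmd10 (0.85) and Psmg2 (0.69) stand at the short end and Psme4 (-0.50) at the long end, with a Spearman's rho of -0.534 over 43 genes.

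Genes that act beside the members were listed for comparison. Of the immunoproteasome subunits, Psmb8 and Psmb9 had at most 5 counts in any library, and Psmb10 had 30.5 and 28.7 CPM in control and 37.2 and 38.4 CPM in HD-homo (log2 fold change 0.35, adjusted p = 0.318). The core assembly factor Pomp and the regulatory particle subunits Adrm1 and Sem1 fall outside the symbol rule, and 0 of 3 were called. Of 6 tested ubiquitin shuttles, which carry substrates to the proteasome, 1 fell (16.7%, beside 10.9% of all tested genes). This was Ubqln2, with 37.02 and 55.04 CPM in control and 19.97 and 21.67 CPM in HD-homo (log2 fold change -1.14, SE 0.25, adjusted p = 0.00422), and the call was lost without control replicate 2 (log2 fold change -0.83, adjusted p = 0.0512). Of 9 tested regulators of proteasome genes none was called, including Nfe2l1, the transcription factor that raises proteasome genes when the proteasome is inhibited (log2 fold change -0.08, SE 0.22, adjusted p = 0.853). The lowest p among them was that of Mafk, a partner of this factor on DNA, with 155 and 123 CPM in control and 101 and 81.3 CPM in HD-homo. These groups did not overlap (log2 fold change -0.61, SE 0.21, adjusted p = 0.0601). With the replicate number as a block, edgeR called Mafk lower (adjusted p = 0.000605). When 1 library was left out, its log2 fold change lay between -0.78 and -0.44. Vcp, which helps release Nfe2l1 from the endoplasmic reticulum, had a log2 fold change of -0.81 (SE 0.39, adjusted p = 0.186), with overlapping groups. None of 8 tested factors bound to the proteasome and none of 6 genes of ubiquitin and its E1 enzymes was called. The TRiC chaperonin, another ring-shaped complex, had 0 of 8 genes called and a median log2 fold change of -0.15. Among all tested genes, 10.4% were called higher and 10.9% lower.

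The promoters were read for the core of the antioxidant response element, TGACNNNGC, the element that Nfe2l1 binds, on both strands. RefSeq start sites on GRCm38.p6 gave 40 windows of 250 bases before a start, for 37 of 45 members. Psmg2 and the catalytic subunit Psmb7 were among the members without a window, so their promoters were not read. The core was in 5 of 40 windows (12.5%), beside 11.7% of the windows of tested genes and 10.2% of all 32851 RefSeq windows. These sites are shown because they sit at catalytic and regulatory subunits and at 1 chaperone of the base, with the match in capitals and in its reverse complement where it lies on the other strand.
Psmb5: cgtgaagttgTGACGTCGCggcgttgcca
Psmb6: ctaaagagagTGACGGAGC
Psmc6: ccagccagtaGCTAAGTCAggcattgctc
Psmd9: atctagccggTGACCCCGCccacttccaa
Psmd12: tctGCTGTGTCAcatttgcccc
The stretches shown for Psmb5 (chr14:54618024-54618052, minus strand), Psmb6 (chr11:70525338-70525356, plus strand) and Psmd9 (chr5:123228149-123228177, plus strand) include the flanks, and the matches in them begin 47, 9 and 31 bases before the start. None of the 5 genes was called. The Psmd10 window held no match to this core and 3 matches to the CCAAT box, found in 32.5% of member windows and 33.8% of all windows. The match nearest its start is shown with its flanks (chrX:140956721-140956745, minus strand), with the box in capitals as its reverse complement.
Psmd10: tagtactttgATTGGtcgccggaac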

How the data were processed

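mRNA of polysome fractions was measured in 2 control and 2 HD-homo libraries. Per the submitters' processing notes, the authors used cutadapt, Bowtie 1.1.2 and RSEM 1.3.0 on GRCm38.p5, and deposited whole-number counts per gene and library. A normalized table with 4 columns was also deposited and was not used. The strand setting is not given in the sources used here.

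Counts were tested with edgeR 4.0.16 in R 4.3.3 (filterByExpr, TMM scaling, quasi-likelihood, control as reference), with Benjamini-Hochberg adjustment over all 12961 tested genes and calls at an adjusted p under 0.05. The biological coefficient of variation was 17.8%. Standard errors and 95% intervals were derived from the F statistic. CPM is TMM-scaled, and SD is over n = 2 libraries of 1 line, so p-values measure only the spread between these libraries. Lengths came from GENCODE M21 on GRCm38, another release than the M16 that the authors used. Alternatives were other scalings and filters, DESeq2 1.42.0, limma-voom (limma 3.58.1), the replicate number as a block, a looser threshold and leaving out each library. The edgeR fit without a block was tested on simulated counts.

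The members and the gene lists were chosen with earlier results of these data known. Named with values in each library were called members, the highest and lowest member of each role group, the catalytic subunits, Psmd14, Psme1 and Psme2, and of each list the called genes or the one of lowest p. Psmg1, Psmg3, Psme3, Nfe2l1 and Vcp were added after their values were seen. Not every gene that this rule takes from the lists is named.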

Additional observations from a re-analysis of the deposited data

How the results depend on the processing

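Psmd10 and Psmg2 were the 2 members called higher under every other scaling and filter, DESeq2 and limma-voom, and 0 were lower. Leaving out 1 library gave 0 to 2 higher members and 0 lower. An adjusted p under 0.1 gave 4, adding Psme2 and Psmg1. With at least 10 counts in every library, 815 of all genes were higher and 883 lower. The replicate numbers are shared by label only (the deviations of same-numbered libraries correlated at 0.39 over 12961 genes, with 2 pairs). With the number as a replicate block, 6 members were higher (Psmd10, Psmg2, Psmg1, Psmg3, Psme2 and Psmf1) and 2 lower (Psmc1 and Psme4), and 2126 and 2350 of all genes. No called member changed sign. Of the 20 members named by rule, 8 changed sign when a library was left out, none of them called. So did 6 of 11 medians, among them the beta ring (0.16, and -0.06 without HD-homo replicate 2), and the summed level of all members (log2 ratio 0.03, and -0.09 without that library). Also without HD-homo replicate 2, medians became -0.50 for the base non-ATPases, -0.28 for the base ATPases, 0.13 for the chaperones of the base and 0.35 for the core chaperones. The lid median lay between -0.07 and 0.07. With 2 libraries a group, intervals of single members reached 2.52-fold (Psmd10).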
